A study of Mus musculus and Homo sapiens with 47 samples.

Results

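The 38 human HOX genes described here were taken by name, not by their values, although earlier results of these data were known. They came from a table of read counts for 25369 genes in SUDHL10, a human lymphoma cell line grown in culture. They comprise 10 genes of the HOXA cluster, 10 of HOXB, 9 of HOXC and 9 of HOXD. RNA was sequenced from cells given UNC1999 at 5 uM and collected on days 1, 3, 5 and 6 (2 libraries a day), from cells given MAK683 at 5 uM and collected on days 1, 3 and 5 (1 library a day), and from untreated cells labelled day 5 (2 libraries). All 13 libraries came from this 1 line, with no genetic change named in the labels, which call the libraries of a group biological replicates. The labels name no vehicle and no untreated library of another day, so on days 1, 3 and 6 the compound and the time in culture cannot be told apart.

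HOX genes encode homeodomain transcription factors that give cells their position along the body axis, and they lie in clusters in the order in which they act, with low-numbered genes acting towards the head and high-numbered genes towards the tail. Polycomb repressive complex 2 (PRC2) places the silencing mark H3K27me3 on HOX clusters in cells that do not use them, whereas Trithorax-type enzymes such as the MLL proteins keep HOX genes active. UNC1999 blocks the catalytic subunits EZH2 and EZH1, and MAK683 binds EED, the subunit that recognises the mark and stimulates the enzyme. In blood, genes of the HOXA and HOXB clusters are used in stem and progenitor cells and are normally turned down as cells differentiate, and several are active in leukaemias.

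Depth was 26234896 to 39315662 counts a library. All 10 B cell markers were detected in the line, with a summed level of 3037 to 5975 CPM, the counts scaled to a common library size, in treated libraries and 5002 to 5050 CPM in untreated libraries. Markers of other cell types were low: the summed level was 0.103 to 13 CPM in treated and 1.65 to 2.08 CPM in untreated libraries for 6 T and NK cell genes, 4.6 to 9.63 CPM in treated and 6.28 to 9.42 CPM in untreated libraries for 6 myeloid genes, and 0.0579 to 5.13 CPM in treated and 2.86 to 4.13 CPM in untreated libraries for 6 stromal and epithelial genes. CD3D, a defining T cell gene, had at most 1 count in any library, whereas CD3E of the same list reached 358 counts and NCAM1 53. The epithelial gene KRT8 reached 89 counts in 1 library. On day 6 of UNC1999, against untreated cells, 3 of 3 tested T and NK cell genes were called higher, 1 myeloid gene was higher and 1 lower of 4, and 5 of 6 stromal and epithelial genes were lower, beside 58.2% of all tested genes called in edgeR at an adjusted p of 0.05 (30.9% higher, 27.3% lower). Of the 10 B cell markers, 7 were called lower and 2 higher on day 1 of UNC1999, beside 26.5% and 28.2% of all tested genes. On day 3 of UNC1999 it was 7 and 1, beside 26.9% and 30.1%. Under MAK683 it was 7 and 2 on day 1 (beside 22.4% and 26.2%), 8 and 0 on day 3 (22.2% and 26.2%). The MAK683 day 5 library gave 1 lower and 6 higher (14.1% and 15.5%). The part of these marker genes' RNA in the HOX results was not tested. In bulk RNA, fewer cells that use a gene and less of its RNA per cell cannot be told apart.

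The library labelled MAK683 day 5 stood apart from the other treated libraries. Its root mean square log2 distance over all tested genes was 1.01 to 1.03 to the untreated libraries, 1.35 to 1.53 to the MAK683 libraries of days 1 and 3, and 1.33 to 1.46 to the UNC1999 libraries. Replicates of a group lay 0.562 to 0.66 apart. Whether the label of the MAK683 day 5 library and its exposure to the compound are as stated was not tested, which bears on every MAK683 day 5 value. Without that library in the fit, the number of HOX genes called in each of the other comparisons was the same.

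**Figure D1:**
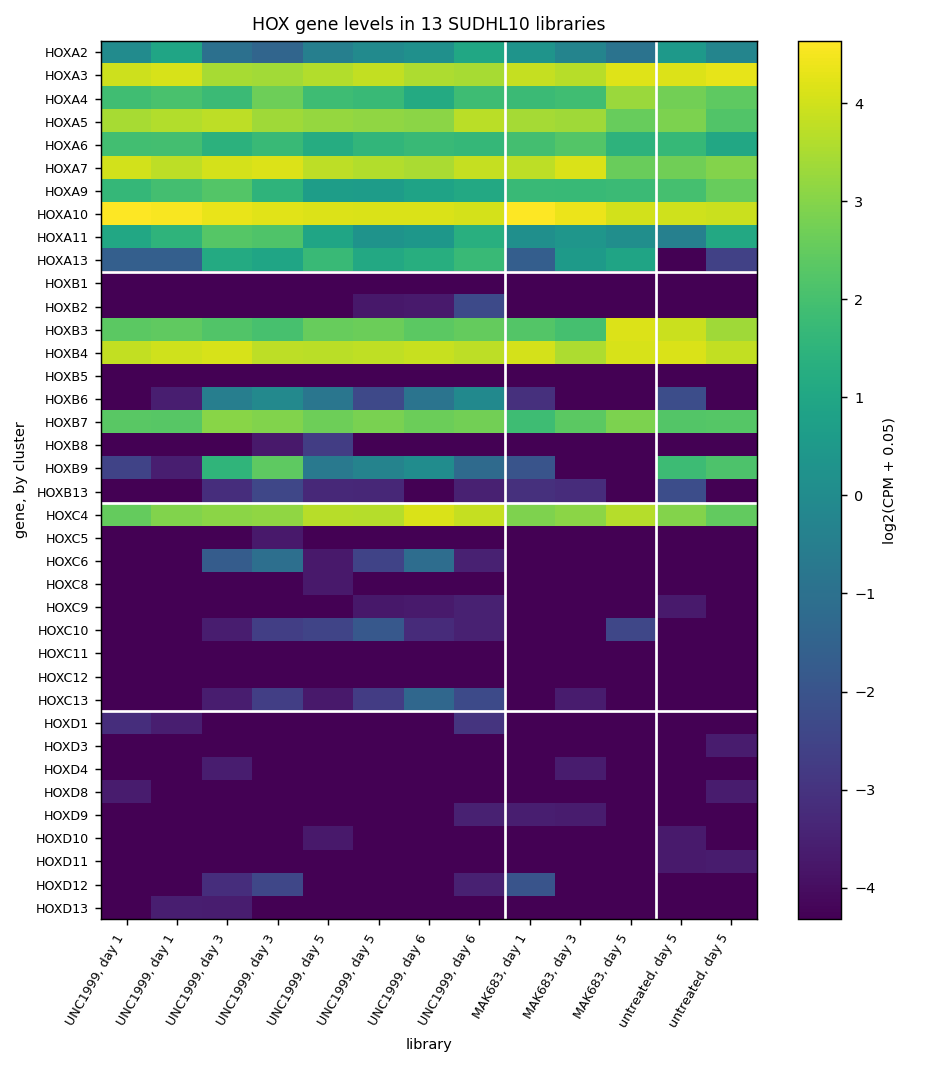
Level of each of the 38 HOX genes (rows, by cluster) in each of the 13 libraries (columns), as log2(CPM + 0.05), dark for 0 counts. All 10 HOXA rows are lit in treated libraries, while most HOXC rows other than HOXC4 and all 9 HOXD rows stay dark or nearly so under both compounds and in untreated cells.

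The clusters differed in how many of their genes had reads in untreated SUDHL10 cells. A mean of at least 1 CPM was found for 14 genes, namely 9 of HOXA, 4 of HOXB (HOXB3, HOXB4, HOXB7 and HOXB9) and HOXC4. Another 8 genes had counts but less than 1 CPM (HOXA13, HOXB6, HOXB13, HOXC9, HOXD3, HOXD8, HOXD10 and HOXD11). The remaining 16 had 0 counts in both untreated libraries, among them HOXB1, HOXB2, HOXB5, HOXB8, 7 HOXC genes and 5 HOXD genes. The filter on low counts kept 18 genes for testing: all 10 of HOXA, 5 of HOXB, 3 of HOXC and 0 of HOXD. Of the 16 genes at 0, HOXC6 and HOXC13 passed, and of the 8 under 1 CPM, HOXA13 and HOXB6 did, each through the treated groups in which it was high.

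Summed over its listed genes, the HOXA cluster was highest on the early days of both compounds. Its level was 81.8 ± 0.95 CPM on day 1 of UNC1999, 77.9 ± 2.3 on day 3, 65.2 ± 1.1 on day 5 and 66.1 ± 8.0 on day 6, against 63.2 ± 0.021 CPM in untreated cells (SD, n = 2 each). Under MAK683, with 1 library a day, it was 76.1, 75.9 and 65.4 CPM on days 1, 3 and 5. The HOXB sum was 25.2 ± 1.1, 32.4 ± 1.6, 27.2 ± 0.95 and 27.3 ± 0.52 CPM on days 1, 3, 5 and 6 of UNC1999 and 25.1, 20.6 and 42.5 CPM on days 1, 3 and 5 of MAK683, against 37.1 ± 5.2 CPM in untreated cells. Every library of UNC1999 days 1, 5 and 6 and of MAK683 days 1 and 3 lay below both untreated libraries in HOXB, as did 1 library of UNC1999 day 3, the other of that day lay between them, and the MAK683 day 5 library lay above both.

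The HOXC sum was higher on later days. It was 6.62 ± 1.3, 9.12 ± 0.48, 13 ± 0.035 and 16.5 ± 2.5 CPM on days 1, 3, 5 and 6 of UNC1999 and 7.35, 8.34 and 12.4 CPM on days 1, 3 and 5 of MAK683, against 6.72 ± 1.6 CPM in untreated cells. HOXC4 alone supplied 97.6% of all HOXC counts, so this sum is in effect that gene. HOXD held 33 counts over all 9 genes and 13 libraries, and no group mean of its sum exceeded 0.237 CPM. HOX genes overlap one another and antisense RNAs. The kit named in the labels does not mark strand, so reads in stretches shared with antisense RNAs cannot be told apart. Reads in stretches shared by neighbours, such as HOXA10 with HOXA9 or HOXC4 with HOXC6, cannot be assigned to 1 gene either.

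**Figure D2:**
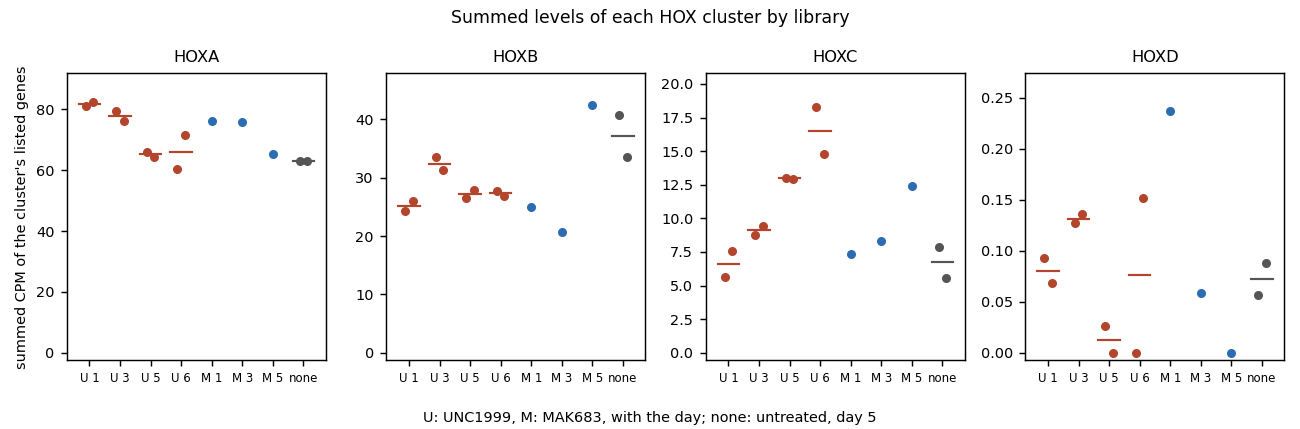
Summed CPM of the listed genes of each HOX cluster in each library (points; lines are means of 2 libraries), by compound and day, with untreated cells at the right. HOXA is highest on days 1 and 3 of both compounds, the MAK683 day 5 library is the highest in HOXB at 42.5 CPM, HOXC reaches 16.5 CPM on day 6 of UNC1999, and HOXD stays under 0.25 CPM.

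Against untreated cells, edgeR's quasi-likelihood test with Benjamini-Hochberg adjustment over all 15278 tested genes called 6 of the 18 tested HOX genes on day 1 of UNC1999 (4 higher, 2 lower), beside 54.7% of all tested genes (28.2% higher, 26.5% lower). It called 11 on day 3 (8 higher, 3 lower), beside 57.1% of all genes (30.1% higher, 26.9% lower). It called 10 on day 5 (5 higher, 5 lower), beside 58.7% (31.3% higher, 27.4% lower), and 12 on day 6 (7 higher, 5 lower), beside 58.2% (30.9% higher, 27.3% lower). Under MAK683 it called 5 on day 1 (3 higher, 2 lower), beside 48.6% of all genes (26.2% higher, 22.4% lower). On day 3 it called 7 (4 higher, 3 lower), beside 48.4% (26.2% higher, 22.2% lower), and on day 5 it called 3 (2 higher, 1 lower), beside 29.6% (15.5% higher, 14.1% lower). In these 7 comparisons 33.3%, 61.1%, 55.6%, 66.7%, 27.8%, 38.9% and 16.7% of the tested HOX genes were called. These shares were close to that of all genes on days 3, 5 and 6 of UNC1999 and below it in the other 4 comparisons. HOXA13, HOXB6, HOXC6 and HOXC13 passed the filter through treated groups in which they were high, so their direction was set beforehand. Among the 14 genes at 1 CPM or more in untreated cells the shares were 35.7%, 57.1%, 64.3%, 57.1%, 35.7%, 42.9% and 14.3%. Of these 14, 5 were higher and 3 lower on day 3 of UNC1999, and 3 and 5 on day 6. In all, 16 of the 18 tested genes were called at least once over the 7 comparisons, among them HOXA13, HOXB6, HOXC6 and HOXC13. The share of all tested genes called at least once was not computed, so this count has no background beside it. The comparisons share the same 2 untreated libraries, and each MAK683 day rests on 1 library that is assumed to vary like the replicated groups.

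HOXA13, the tail-most HOXA gene, which shapes the end of the limb and the urogenital tract, had the largest fitted rise in the HOXA cluster. HOXA13 passed the filter through treated groups in which it was high, so the direction of its change was set beforehand. It had 9 and 8 counts on day 1 of UNC1999, 68 and 69 on day 3, 129 and 84 on day 5 and 83 and 87 on day 6. MAK683 libraries held 8, 48 and 53 counts on days 1, 3 and 5, and untreated libraries 0 and 4. All 11 treated libraries were above both untreated libraries, and under both compounds the level was low on day 1 and higher from day 3. The log2 fold change was 2.19 ± 0.87 (SE) on day 1 of UNC1999 (adjusted p = 0.0363 in edgeR), 5.03 ± 0.73 on day 3 (2.05e-06), 5.46 ± 0.72 on day 5 (4.78e-07) and 5.53 ± 0.72 on day 6 (4.33e-07).
For MAK683 the log2 fold change of HOXA13 was 2.16 ± 1.0 on day 1, which missed the threshold (adjusted p = 0.0864 in edgeR), 4.53 ± 0.81 on day 3 (4.66e-05) and 4.90 ± 0.80 on day 5 (3.93e-05). The library labelled MAK683 day 5 shared this rise, although its overall profile lay closer to untreated than to other treated libraries. The size of the change depended on the few untreated counts: without the first untreated column, which held 0 counts, the log2 fold changes from day 3 on were 4.04, 4.46 and 4.54 for UNC1999 and 3.50 and 3.85 for MAK683, and without the second they were 9.06, 9.49 and 9.56 for UNC1999 and 8.55 and 8.93 for MAK683. All of these stayed called. The UNC1999 day 1 call was lost without the first untreated column (adjusted p = 0.284 in edgeR) or without UNC1999 replicate 1 (0.0889) or 2 (0.0915), and MAK683 day 1 was called without the second untreated column (0.00901).

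HOXA7 and HOXA5, genes of the middle of the cluster that pattern the trunk, rose moderately on every UNC1999 day and on days 1 and 3 of MAK683. HOXA7, also active in acute leukaemias with MLL fusions, had 16.2 and 13.3 CPM on day 1 of UNC1999, 16.5 and 17.9 on day 3, 13.4 and 12.1 on day 5 and 11.2 and 14.5 on day 6. It had 13.4, 17.2 and 6.02 CPM on days 1, 3 and 5 of MAK683, against 6.41 and 7.87 CPM in untreated cells. Every treated library but that of MAK683 day 5 lay above both untreated libraries. The fold was 2.07, 2.41, 1.79 and 1.80 on days 1, 3, 5 and 6 of UNC1999 (adjusted p = 1.2e-05, 7.03e-07, 0.000168 and 0.000169 in edgeR), and 1.88 and 2.42 on days 1 and 3 of MAK683 (0.000617 and 8.71e-06). On day 5 of MAK683 the log2 fold change was -0.25 ± 0.22 (adjusted p = 0.454 in edgeR). None of the HOXA7 calls was lost under any alternative tried.

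HOXA5, needed for lung and axial skeleton development in mice, had 10.9 and 12 CPM on day 1 of UNC1999, 13.3 and 10.1 on day 3, 9.27 and 8.92 on day 5 and 8.31 and 13 on day 6. It had 10.8, 10.2 and 5.84 CPM on days 1, 3 and 5 of MAK683, against 7.31 and 4.57 CPM in untreated cells. The UNC1999 libraries and the first 2 MAK683 days again exceeded both untreated libraries, while MAK683 day 5 lay between them. The fold was 1.93, 1.97, 1.53 and 1.78 on the 4 UNC1999 days (adjusted p = 0.000904, 0.000617, 0.0218 and 0.00275 in edgeR) and 1.82 and 1.72 on days 1 and 3 of MAK683 (0.00926 and 0.0184). The second untreated column was the lower one, and without it the calls on UNC1999 days 5 and 6 (adjusted p = 0.299 and 0.0777 in edgeR) and on MAK683 days 1 and 3 (0.108 and 0.178) were lost. The day 5 call was also lost without UNC1999 replicate 1 (adjusted p = 0.082 in edgeR) or 2 (0.056), and the day 6 call without replicate 2 (0.122).

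HOXA10, a regulator of blood progenitors and of the uterus, was higher on the early days of both compounds. It had 24.8 and 23.3 CPM on day 1 of UNC1999, 20.4 and 18.8 on day 3, 17.8 and 17.6 on day 5 and 17.4 and 16.8 on day 6. It had 24.6, 20.6 and 16.2 CPM on days 1, 3 and 5 of MAK683, against 15.7 and 15.1 CPM in untreated cells. All 11 treated libraries were above both untreated libraries, with the lowest values on the last day of each compound. The fold was 1.56 on day 1 of UNC1999 (adjusted p = 0.000113 in edgeR) and 1.60 on day 1 of MAK683 (0.000573), and by day 3 it was 1.27 (0.0229) and 1.34 (0.0242). The day 3 calls were lost without either untreated column (adjusted p = 0.053 and 0.0948 for UNC1999, 0.0622 and 0.0757 for MAK683, in edgeR) and, for UNC1999, without its replicate 1 (0.108). Later log2 fold changes were 0.20 ± 0.13 and 0.15 ± 0.13 on days 5 and 6 of UNC1999 and 0.07 ± 0.16 on day 5 of MAK683, none of them called.

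HOXA11, a neighbour of HOXA13 that patterns the forearm and the uterus in mice, was called on day 3 of UNC1999 alone. It had 4.75 and 4.43 CPM there, against 0.703 and 2.09 CPM in untreated cells, and 1.05, 1.27 and 1.04 CPM on days 1, 3 and 5 of MAK683. The other UNC1999 days, at 1.17 to 2.78 CPM, overlapped untreated cells. The day 3 fold was 3.29 (adjusted p = 0.00266 in edgeR). The untreated libraries differ so much in this gene that the call was lost without the first (log2 fold change 1.12, adjusted p = 0.0591 in edgeR) and that days 1 and 6 were called without the second (1.76, 0.0113, and 1.40, 0.0384), where the day 3 change was 2.70 (0.00037). Its antisense RNA HOXA11-AS had 35 and 76 counts on day 3 of UNC1999, against 66 and 22 in untreated cells. Strand was not marked by the kit, so reads in stretches shared by these 2 genes cannot be assigned to either.

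**Figure D3:**
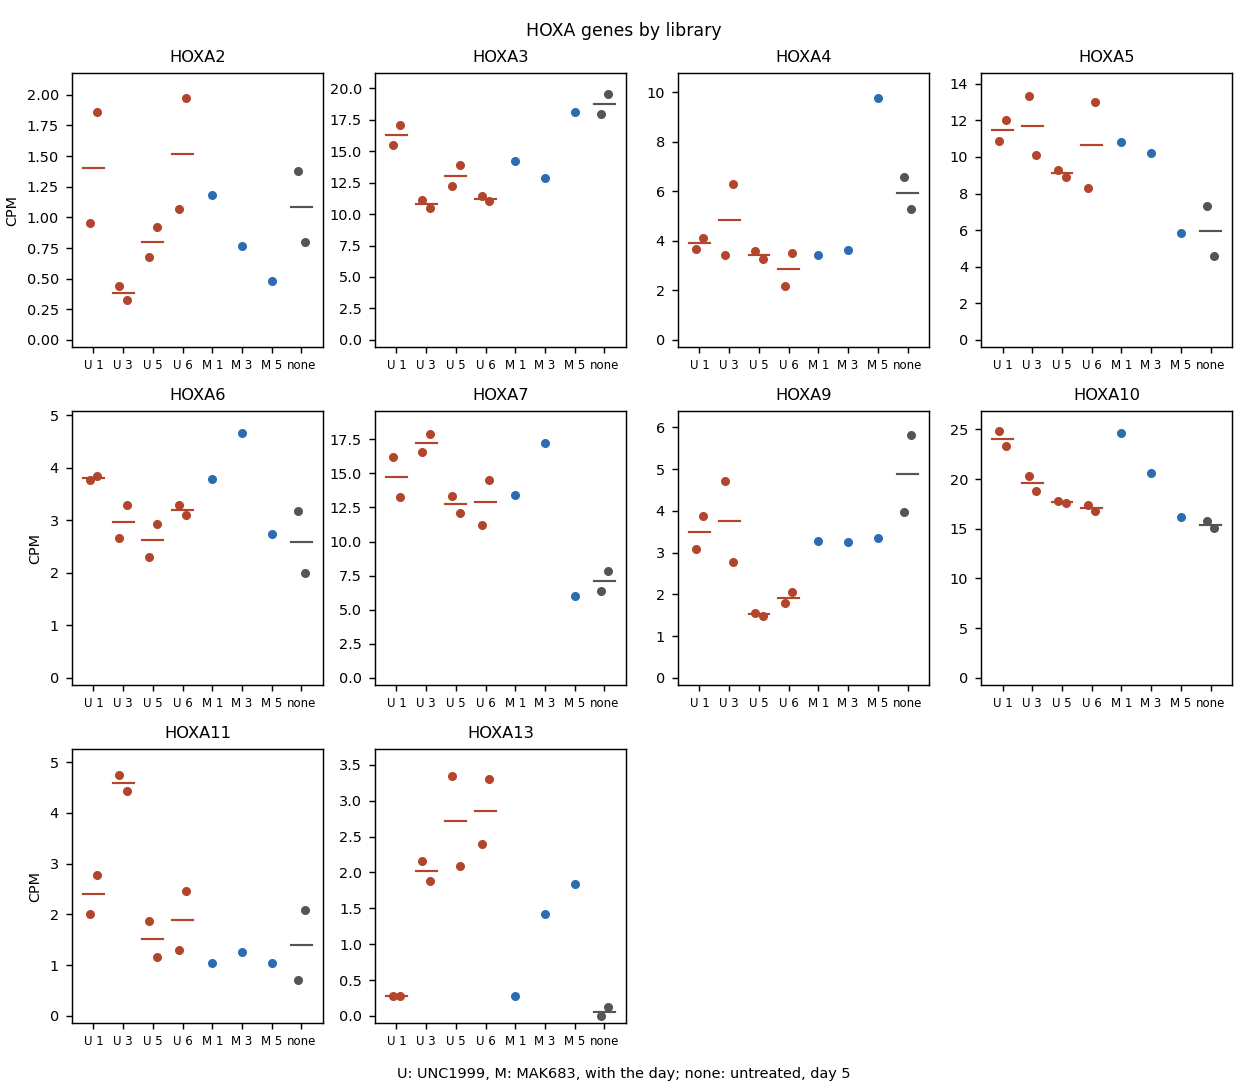
CPM of each of the 10 HOXA genes in each library (points; lines are means of 2 libraries), with its own axis from 0 per gene. HOXA5, HOXA7 and HOXA10 are above untreated cells on days 1 and 3 of both compounds, HOXA13 is near 0 in untreated cells and on day 1 and reaches 3.34 CPM, and HOXA3, HOXA4 and HOXA9 are below untreated cells on the late UNC1999 days.

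Other HOXA genes fell. HOXA3, which acts in the thymus and parathyroid primordium in mice, had 15.4 and 17.1 CPM on day 1 of UNC1999, 11.1 and 10.5 on day 3, 12.2 and 13.9 on day 5 and 11.4 and 11.0 on day 6. It had 14.2, 12.9 and 18.2 CPM on days 1, 3 and 5 of MAK683, against 18.0 and 19.5 CPM in untreated cells. Each treated library except MAK683 day 5 lay below both untreated libraries. The log2 fold change was -0.80 ± 0.14 on day 3 (adjusted p = 4.47e-05 in edgeR), -0.52 ± 0.14 on day 5 (0.00269) and -0.74 ± 0.14 on day 6 (0.00011) of UNC1999, and -0.54 ± 0.18 on day 3 of MAK683 (0.0136, and 0.0525 without the second untreated column). On day 1 it was -0.21 ± 0.14 for UNC1999 and -0.40 ± 0.18 for MAK683 (adjusted p = 0.225 and 0.0658 in edgeR). The MAK683 day 1 value passed without the first untreated column (0.0309) and under each other scaling or filter tried.

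HOXA9, a driver of self-renewal in blood progenitors and in leukaemia, had 3.08 and 3.88 CPM on day 1 of UNC1999, 4.72 and 2.77 on day 3, 1.55 and 1.49 on day 5 and 1.79 and 2.05 on day 6. It had 3.29, 3.24 and 3.35 CPM on days 1, 3 and 5 of MAK683, against 3.96 and 5.81 CPM in untreated cells. The late UNC1999 days were thus the lowest of the series, and the day 3 replicates overlapped untreated cells. The log2 fold change was -1.68 ± 0.34 on day 5 (adjusted p = 0.000139 in edgeR) and -1.35 ± 0.34 on day 6 (0.00135), and it held in every alternative tried. No MAK683 day was called, with log2 fold changes of -0.57 ± 0.40, -0.59 ± 0.40 and -0.54 ± 0.40.

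HOXA4, a gene of the head-side part of the cluster, had 3.67 and 4.12 CPM on day 1 of UNC1999, 3.42 and 6.30 on day 3, 3.60 and 3.28 on day 5 and 2.17 and 3.52 on day 6. It had 3.42, 3.63 and 9.79 CPM on days 1, 3 and 5 of MAK683, against 6.58 and 5.30 CPM in untreated cells, so MAK683 day 5 was the highest library. The log2 fold change was -0.79 ± 0.29 on day 5 of UNC1999 (adjusted p = 0.0232 in edgeR) and -1.07 ± 0.30 on day 6 (0.00363). The day 5 call was lost without the first untreated column (adjusted p = 0.131 in edgeR) or without UNC1999 replicate 1 (0.0637) or 2 (0.114), and the day 6 call without replicate 1 (0.0915). HOXA2, a hindbrain and branchial arch gene, was called on day 3 of UNC1999 alone, with 14 and 12 counts there against 49 and 27 in untreated cells (log2 fold change -1.50 ± 0.63, adjusted p = 0.0472 in edgeR). That call was lost under 6 of 11 alternatives, among them without the first untreated column (0.246), UNC1999 replicate 1 (0.0807) or replicate 2 (0.179). HOXA6, at 2.00 to 4.66 CPM over the 13 libraries, was called on no day, although MAK683 day 3 passed without the first untreated column (0.0234).

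In HOXB, HOXB3 and HOXB9 fell while HOXB7 and HOXB6 rose on some UNC1999 days. HOXB3, a head-side HOXB gene expressed in early blood progenitors, had 5.21 and 5.36 CPM on day 1 of UNC1999, 4.60 and 4.02 on day 3, 5.88 and 6.09 on day 5 and 5.21 and 5.72 on day 6. It had 4.64, 3.98 and 18.0 CPM on days 1, 3 and 5 of MAK683, against 14.9 and 10.2 CPM in untreated cells. All UNC1999 libraries and the MAK683 libraries of days 1 and 3 were below both untreated libraries, and MAK683 day 5 was above both. The log2 fold change of HOXB3 was -1.25 ± 0.21, -1.55 ± 0.21, -1.07 ± 0.20 and -1.20 ± 0.21 on days 1, 3, 5 and 6 of UNC1999 (adjusted p = 1.48e-05, 8.3e-07, 7.35e-05 and 2.3e-05 in edgeR). It was -1.44 ± 0.27 and -1.66 ± 0.27 on days 1 and 3 of MAK683 (8.48e-05 and 1.63e-05), where HOXB3 was 2.71- and 3.16-fold lower than in untreated cells. These 6 calls held in every alternative tried. On day 5 of MAK683 the log2 fold change was 0.52 ± 0.24 (adjusted p = 0.107 in edgeR), which passed without the first untreated column (0.0345).

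HOXB9, a trunk gene that in mice patterns the ribs, showed the widest swings. It had 4 and 1 counts on day 1 of UNC1999, 91 and 194 on day 3, 22 and 30 on day 5 and 34 and 10 on day 6. It had 6, 0 and 0 counts on days 1, 3 and 5 of MAK683, against 125 and 148 in untreated cells. The day 3 UNC1999 libraries lay on either side of the untreated libraries, every other UNC1999 library lay below both, and MAK683 libraries had at most 6 counts. The log2 fold change was -5.54 ± 0.69 on day 1 (adjusted p = 2.36e-07 in edgeR), 0.05 ± 0.47 on day 3 (0.938), -2.57 ± 0.52 on day 5 (0.000151) and -2.49 ± 0.52 on day 6 (0.000248) of UNC1999. Without UNC1999 replicate 1 the day 1 change was -6.69 and the day 6 change -3.36, both still called. Under MAK683 it was -4.25 ± 0.82 on day 1 (adjusted p = 0.000121 in edgeR), and on days 3 and 5, set against the 3 counts that a count of 0 allows, HOXB9 was at least 44.4- and 37.9-fold lower than in untreated cells (2.99e-06 and 1.33e-05).

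HOXB7, a trunk gene of the cluster's middle, had 5.00 and 4.88 CPM on day 1 of UNC1999, 8.24 and 7.56 on day 3, 6.29 and 7.01 on day 5 and 6.11 and 6.52 on day 6. It had 3.59, 5.13 and 7.26 CPM on days 1, 3 and 5 of MAK683, against 4.70 and 4.75 CPM in untreated cells. All UNC1999 libraries exceeded both untreated libraries, those of day 1 by little. The fold was 1.67 on day 3 (adjusted p = 0.00376 in edgeR) and 1.41 on day 5 (0.0444), and day 6 missed the threshold (log2 fold change 0.42 ± 0.21, 0.0923). The day 5 call was lost without either untreated column (adjusted p = 0.121 and 0.0981 in edgeR) or either UNC1999 replicate (0.075 and 0.207), and under 8 of 11 alternatives in all.

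HOXB6, a gene used in erythroid progenitors, was sparse, with 0 and 1 counts on day 1 of UNC1999, 21 and 32 on day 3, 20 and 6 on day 5 and 17 and 24 on day 6. It had 2, 0 and 0 counts on the MAK683 days, against 6 and 0 in untreated cells. It was called higher on days 3 and 6 of UNC1999 (log2 fold changes 3.12 ± 1.2 and 2.98 ± 1.2, adjusted p = 0.0343 and 0.0428 in edgeR). HOXB6 passed the filter through UNC1999 groups in which it was high, so this direction was set beforehand. Both calls were lost without the second untreated column, which held 0 counts (2.16, 0.19, and 2.02, 0.218), without UNC1999 replicate 1 (0.0507 and 0.0515) and without replicate 2 (0.0922 and 0.162). Without the first untreated column the fitted log2 values were 7.69 and 7.55 (0.0118 and 0.0134) and day 5 was called too (0.0369). HOXB4, which expands blood stem cells when forced on in mice, was called on no day and lay between 11.5 and 17.3 CPM in all 13 libraries, with MAK683 day 3 lowest (log2 fold change -0.46 ± 0.19, adjusted p = 0.0559 in edgeR, and 0.0247 without the second untreated column). The other HOXB genes gave few reads: HOXB1 and HOXB5 had 0 counts in every library, HOXB2 and HOXB8 at most 4, and HOXB13, a prostate gene, at most 6.

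**Figure D4:**
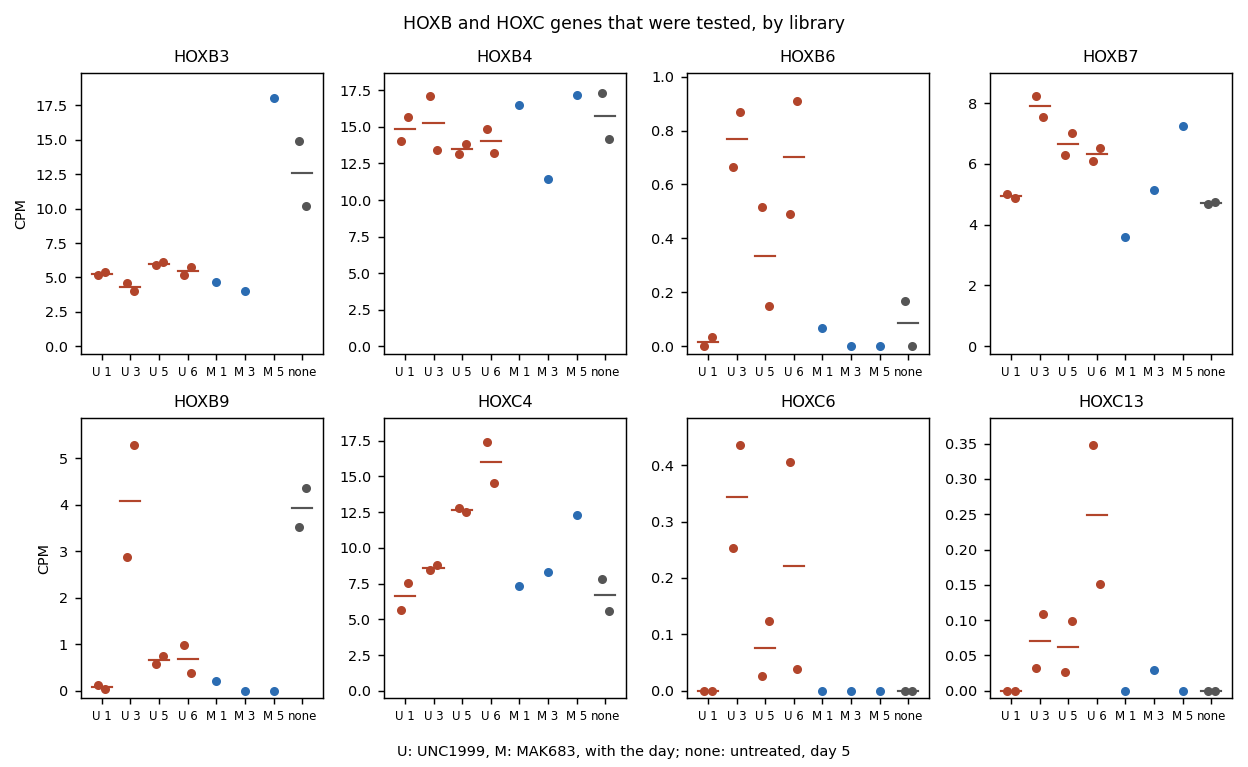
CPM of the 5 HOXB and 3 HOXC genes that passed the filter, in each library (points; lines are means of 2 libraries), with an axis of its own per gene. HOXB3 is low in every treated library except MAK683 day 5 at 18.0 CPM, HOXB9 is below both untreated libraries in every treated library but 1 of UNC1999 day 3, HOXC4 is higher on later days, and HOXC6 and HOXC13 have reads in UNC1999 libraries from day 3 on.

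HOXC4, the head-most HOXC gene, which is expressed in lymphocytes and promotes antibody class switching in B cells, was the one HOXC gene already expressed in untreated cells. It had 5.67 and 7.56 CPM on day 1 of UNC1999, 8.46 and 8.78 on day 3, 12.8 and 12.5 on day 5 and 17.4 and 14.5 on day 6. It had 7.35, 8.31 and 12.3 CPM on days 1, 3 and 5 of MAK683, against 7.82 and 5.60 CPM in untreated cells. From day 3 on, every library of both compounds exceeded both untreated libraries. HOXC4 was 1.88-fold higher on day 5 of UNC1999 (adjusted p = 0.000203 in edgeR), 2.38-fold higher on day 6 (4.04e-06) and 1.83-fold higher on day 5 of MAK683 (0.00472). The MAK683 call was lost without the second untreated column (adjusted p = 0.0555 in edgeR). Earlier log2 fold changes were -0.02 ± 0.20 and 0.36 ± 0.19 on days 1 and 3 of UNC1999 and 0.13 ± 0.24 and 0.31 ± 0.23 on days 1 and 3 of MAK683, none of them called, and day 3 of UNC1999 was called without the first untreated column (0.029).

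Of the 7 HOXC genes at 0 in untreated cells, HOXC6, which patterns the thorax, and HOXC13, which acts in hair and nail, gathered enough reads to be tested. HOXC6 had 0 and 0 counts on day 1 of UNC1999, 8 and 16 on day 3, 1 and 5 on day 5 and 14 and 1 on day 6, against 0 in each MAK683 and untreated library. Against the 3 counts that 0 allows over the untreated group, it was at least 8.14-fold higher on day 3 of UNC1999 (adjusted p = 0.0182 in edgeR). On day 6 it was at least 5.7-fold higher (0.0338). These folds take the UNC1999 counts as exact, so counting error and the spread of 14 and 1 on day 6 allow smaller ones. Since HOXC6 passed the filter through the UNC1999 groups, the direction was set beforehand, which holds for HOXC13 too. HOXC13 had 0 and 0 counts on day 1, 1 and 4 on day 3, 1 and 4 on day 5 and 12 and 4 on day 6 of UNC1999, 0, 1 and 0 on days 1, 3 and 5 of MAK683, and 0 in untreated cells. With its counts taken as exact in the same way, HOXC13 was at least 6.08-fold higher on day 6 (adjusted p = 0.0304 in edgeR). HOXC13 reached 10 counts only in the 1 day 6 library with 12, and without that library it could not be tested.
These HOXC6 and HOXC13 calls rest on few reads, and each was lost in DESeq2. Without the first or the second untreated column the adjusted p was 0.0842 and 0.0803 for HOXC6 on day 3, 0.122 and 0.116 for HOXC6 on day 6, and 0.113 and 0.109 for HOXC13. HOXC6 also lost its day 3 call without UNC1999 replicate 2 (0.0554) and its day 6 call without replicate 1 (0.372). The other HOXC genes stayed near 0: HOXC10 reached 9 counts, on day 5 of UNC1999, HOXC5, HOXC8 and HOXC9 had at most 1, and HOXC11 and HOXC12 had 0 in every library. HOXC10, a hindlimb and lumbar gene, summed to 14 counts over the 2 UNC1999 day 5 libraries and 4 in the MAK683 day 5 library, against 0 in untreated cells.

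HOXD genes, which pattern limbs and genitalia, gave almost no reads under either compound. The highest single value was 6 counts of HOXD12 on day 1 of MAK683, and 5 counts of the same gene in 1 library of UNC1999 day 3 came next. HOXD1 had at most 2 counts, and the other 7 genes at most 1. None passed the filter, so no rise of the HOXD cluster was detectable at this depth, at which a count of 0 still allows 3 counts a library.

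By starting level, the 14 genes at 1 CPM or more in untreated cells moved both ways, with 3 higher and 2 lower on day 1 of UNC1999, 5 and 3 on day 3, 4 and 5 on day 5 and 3 and 5 on day 6, beside 54.7%, 57.1%, 58.7% and 58.2% of all tested genes called. Under MAK683 they gave 3 higher and 2 lower on day 1, 3 and 3 on day 3, and 1 and 1 on day 5, beside 48.6%, 48.4% and 29.6% of all tested genes. The median log2 fold change of these 14 genes was 0.021, 0.13, -0.10 and 0.23 on the UNC1999 days, beside -0.023, 0.0057, 0.032 and 0.027 over all tested genes. It was -0.16, -0.30 and 0.022 on the MAK683 days, beside -0.043, -0.028 and -0.0013 over all genes. The starting class was set by the same untreated libraries that enter these comparisons. Of the 24 genes that began under 1 CPM or at 0, 4 passed the filter and 20 did not, and since these 4 passed through groups in which they were high, their direction was set by the filter.

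Within the UNC1999 series, day 6 against day 1 gave 9 calls among the 18 tested genes (6 higher, 3 lower), beside 47.5% of all tested genes (22.1% higher, 25.5% lower). Of the 6 higher calls, 4 (HOXA13, HOXB6, HOXC6 and HOXC13) were of genes that passed the filter through late UNC1999 groups in which they were high, and among the 14 genes that began at 1 CPM or more 2 were higher and 3 lower. HOXC4, at 15.97 CPM on day 6 and 6.62 CPM on day 1, was higher by a log2 fold change of 1.28 ± 0.19 (adjusted p = 6.21e-06 in edgeR), and HOXA13 by 3.35 ± 0.59 (4.74e-05). HOXB6, HOXB9, HOXC6 and HOXC13 were higher too, of which HOXB6 had 41 counts on day 6 and 1 on day 1 (ratio 41.4, exact 95% counting interval 7.03 to 1670). HOXA3 (log2 fold change -0.53 ± 0.15), HOXA9 (-0.86 ± 0.34) and HOXA10 (-0.50 ± 0.13) were lower on day 6. With 1 library left out on each of the 2 days the count was 3 without UNC1999 replicate 1 and 4 without replicate 2, and of the 9 calls only HOXA13 and HOXC4 remained in both. The adjusted p without replicate 1 was 0.174 for HOXA9, 0.0731 for HOXA10, 0.0923 for HOXB6, 0.0537 for HOXB9 and 0.572 for HOXC6, and without replicate 2 it was 0.147 for HOXA3, 0.257 for HOXA9, 0.0701 for HOXB6, 0.115 for HOXC6 and 0.159 for HOXC13.

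Within the MAK683 series, day 5 against day 1 also gave 9 calls (5 higher, 4 lower), beside 52.4% of all tested genes (26% higher, 26.4% lower). HOXB3 (log2 fold change 1.96 ± 0.30), HOXA4 (1.51 ± 0.42), HOXB7 (1.01 ± 0.31), HOXA13 (2.74 ± 0.84) and HOXC4 (0.74 ± 0.27) were higher on day 5. Of these, HOXA13 passed the filter through groups of later days in which it was high. HOXA7 (-1.16 ± 0.25), HOXA5 (-0.89 ± 0.32) and HOXA10 (-0.60 ± 0.18) were lower. HOXB9 had 0 counts on day 5 and 6 on day 1, at least 1.96-fold lower if the 6 counts are taken as exact (adjusted p = 0.0412 in edgeR). The HOXB9 call was lost under 3 of 6 alternatives, among them DESeq2 (adjusted p = 0.0554), and the HOXA5 call was lost in DESeq2 (0.0566). These are 2 single libraries, so the errors and p-values rest on the spread of the other groups, and 1 of them is the library that stood apart: with day 3 in place of day 5, a comparison added after the data were seen, 0 of the 18 genes were called in edgeR, 3 had an unadjusted p under 0.05, and 19.7% of all tested genes were called.

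Next the 2 compounds were compared at 5 uM on matched days, over 18 tested genes on each of 3 days, with p-values adjusted over all tested genes of a day. On day 1, 0 of the 18 HOX genes were called in edgeR or in DESeq2, 0 had an unadjusted p under 0.05 in edgeR, and 8.05% of all tested genes were called (4.4% higher, 3.65% lower under UNC1999). HOXA7, at 14.7 CPM under UNC1999 and 13.4 CPM under MAK683, differed by a log2 of 0.14, with an interval of 2 SE from -0.27 to 0.55. For HOXB3 the difference was 0.19 (interval -0.35 to 0.72) and for HOXA10 it was -0.03 (-0.33 to 0.27). Narrow intervals of this kind do not hold for sparse genes: that of HOXA13 ran from -1.68 to 1.73.

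On day 3 the compounds differed in 3 HOX genes, all higher under UNC1999, beside 22.6% of all tested genes (10.8% higher, 11.8% lower). Of these, HOXB6 passed the filter through UNC1999 groups in which it was high, so its direction between the compounds was set beforehand. HOXB9 had 91 and 194 counts under UNC1999 and 0 under MAK683, at least 47.1-fold higher (adjusted p = 2.1e-05 in edgeR). HOXB6 had 21 and 32 counts under UNC1999 and 0 under MAK683, at least 8.77-fold higher (0.0375, and 0.0736 without UNC1999 replicate 2). HOXA11 had 4.75 and 4.43 CPM under UNC1999 and 1.27 CPM under MAK683 (log2 difference 1.85 ± 0.60, adjusted p = 0.0288 in edgeR), a call lost without UNC1999 replicate 1 (0.0602) or 2 (0.0597). For genes called under both compounds on this day the difference did not pass, with a log2 difference of -0.0034 for HOXA7 (interval -0.40 to 0.39), 0.20 for HOXA5 (-0.34 to 0.73), 0.11 for HOXB3 (-0.43 to 0.65) and 0.51 for HOXA13 (-0.73 to 1.75).

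On day 5 the test called 6 HOX genes, 2 higher and 4 lower under UNC1999, beside 52.1% of all tested genes (26.4% higher, 25.7% lower), and all of these rest on the MAK683 library that stood apart. HOXA7 was higher under UNC1999 (log2 difference 1.08 ± 0.22, adjusted p = 0.000222 in edgeR), and HOXB9, with 22 and 30 counts under UNC1999 and 0 under MAK683, was at least 6.36-fold higher (0.00103). HOXB3 (log2 difference -1.59 ± 0.24, adjusted p = 3.76e-06 in edgeR), HOXA4 (-1.51 ± 0.34, 0.00055), HOXA9 (-1.14 ± 0.40, 0.0206) and HOXA3 (-0.48 ± 0.17, 0.0229) were lower under UNC1999. HOXA9 lost its call without UNC1999 replicate 1 (0.0587) or 2 (0.0721) and HOXA3 without replicate 1 (0.131), and HOXB6, at 20 and 6 counts under UNC1999 and 0 under MAK683 (0.0593), was called without replicate 2 (0.0483). HOXC4 and HOXA13 did not pass, with log2 differences of 0.04 (interval -0.41 to 0.50) and 0.57 (-0.66 to 1.79).

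**Figure D5:**
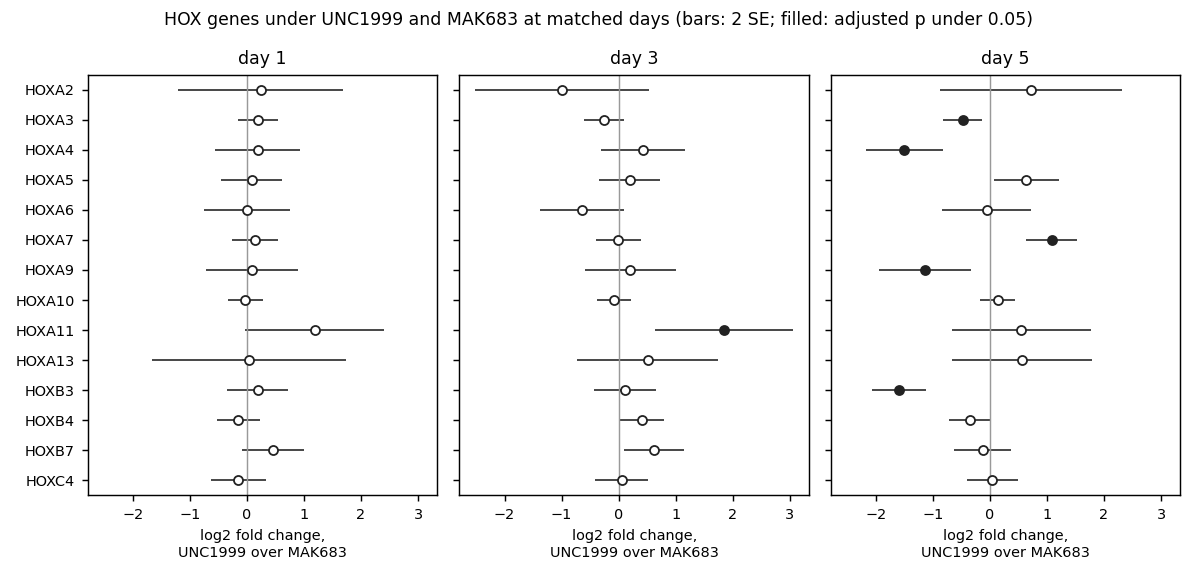
Log2 fold change of UNC1999 (2 libraries) over MAK683 (1 library) on days 1, 3 and 5 for the 14 HOX genes with counts in every group, with bars of 2 SE and filled points for an adjusted p under 0.05 in edgeR. No point is filled on day 1, HOXA11 alone on day 3, and HOXA3, HOXA4, HOXA7, HOXA9 and HOXB3 on day 5.

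Noncoding RNAs of the clusters were sparse, and 5 of the 20 in the table could be tested. HOTAIRM1, transcribed from the head-side end of HOXA, had 402 and 426 counts on day 1 of UNC1999, 421 and 447 on day 3, 336 and 443 on day 5 and 396 and 261 on day 6. It had 502, 445 and 969 counts on days 1, 3 and 5 of MAK683, against 1298 and 1136 in untreated cells. It was called lower on every UNC1999 day and on days 1 and 3 of MAK683, with a log2 fold change of -1.71 ± 0.15 on day 6 of UNC1999 (adjusted p = 5.82e-10 in edgeR), and on day 5 of MAK683 the value was -0.06 ± 0.17 (0.837). HOTTIP, transcribed beside HOXA13, had 7 and 7 counts on day 1 of UNC1999, 25 and 51 on day 3, 32 and 81 on day 5 and 42 and 58 on day 6, and 13, 24 and 6 on the MAK683 days, against 41 and 20 in untreated cells. It was called lower than in untreated cells on day 1 of UNC1999 (log2 fold change -1.92 ± 0.72, adjusted p = 0.026 in edgeR) and was called on no other day against untreated cells. HOTAIR of the HOXC cluster had 0 counts in every library.

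Among the HOX cofactors of the TALE class, which bind DNA together with HOX proteins, 2 of 7 tested genes were higher and 1 was lower on day 6 of UNC1999, beside 58.2% of all tested genes called, with a median log2 fold change of -0.091, beside 0.027 over all genes. MEIS1, the partner of HOXA9 in leukaemia, had a mean of 14.8 CPM on that day against 5.07 CPM in untreated cells (log2 fold change 1.54 ± 0.20, adjusted p = 3.57e-07 in edgeR). It was also called on days 3 and 5 of UNC1999 and on days 3 and 5 of MAK683, so its late rise was shared by the library that stood apart (log2 fold change 1.26 ± 0.23, adjusted p = 0.000173 in edgeR). PBX2 was higher (0.20 ± 0.081) and MEIS2 lower (-0.26 ± 0.11) on day 6.

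Of 12 PRC2 subunit genes tested, 5 were higher and 6 lower on day 6 of UNC1999, beside 58.2% of all tested genes called (30.9% higher, 27.3% lower), with a median log2 fold change of -0.096, beside 0.027 over all genes, and the summed level of the list was 1272 to 1490 CPM in treated and 1292 to 1333 CPM in untreated libraries. C17orf96, an accessory subunit also named EPOP, averaged 63.5 CPM on day 6 of UNC1999 against 10.5 CPM in untreated cells (log2 fold change 2.60 ± 0.12), and PHF19, which helps PRC2 onto chromatin, averaged 163 CPM against 73.5 CPM (1.15 ± 0.076). EZH1 (-1.04 ± 0.12) and PHF1 (-1.52 ± 0.14) were lower. PHF19 was higher on days 1 and 3 of MAK683 too and lower on its day 5 (log2 fold change -0.37 ± 0.096, adjusted p = 0.00422 in edgeR). Of 16 tested genes for HOX activators, which include the MLL complex, menin, DOT1L and the H3K27 demethylases, 5 were higher and 8 lower on day 6 of UNC1999, beside the same 58.2% of all genes, with a median log2 fold change of -0.20, beside 0.027 over all genes. PSIP1, ASH1L and the demethylase KDM6B were lower (-0.77 ± 0.074, -1.18 ± 0.099 and -1.04 ± 0.13) and MLLT1 was higher (0.59 ± 0.077).

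Of 4 tested genes that flank the clusters without being HOX genes, SKAP2 beside HOXA was lower on day 6 of UNC1999 (log2 fold change -0.25 ± 0.077, adjusted p = 0.00737 in edgeR), and MTX2, SMUG1 and CBX5 were not called. Of the CDX and ParaHox factors, relatives of the HOX genes that include activators of HOX clusters, GSX2 alone could be tested and was not called on that day (-0.26 ± 0.25). Among the B cell markers, 3 were higher and 5 lower of 10, beside 30.9% higher and 27.3% lower of all tested genes, with CD79A higher and MME and BLK lower on day 6 of UNC1999, and of the T and NK cell markers CD3E averaged 10.7 CPM there against 1.78 CPM in untreated cells (2.58 ± 0.30).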

How the data were processed

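Whole-number read counts per gene were used as deposited by the authors, not normalized, for 13 SUDHL10 libraries. Per the labels' protocols, libraries were TruSeq RNA V2 and single-end. The submitters' processing notes list Cell Ranger 3.0.2, SICER 0.0.1, Bowtie2 2.3.4.3, DESeq2 and STAR 2.5.3a without roles. Which counter, annotation and human build made the table is not given in the sources used here, and no gene lengths were available, so CPM is not per length: the class of 1 CPM, the cluster sums and shares of counts are read depth, not relative levels of genes. The 2 untreated columns share 1 header and served as replicates without numbers, here the first and the second column. Chromatin and mouse samples were not used here.

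The table was fitted in edgeR 4.0.16 under R 4.3.3 with 1 mean per group (8 groups), filterByExpr, TMM scaling, quasi-likelihood F tests and adjustment after Benjamini and Hochberg across 15278 genes, at an adjusted p of 0.05. Residual degrees of freedom were 5, prior degrees of freedom 18.6 and the common biological coefficient of variation 0.0927. A SE is the log2 fold change over the square root of F, ± gives a SE for log2 values and a SD for CPM, and CPM uses TMM library sizes. Bounds use 3 counts over the group at 0 and take the other group's counts as exact, so counting error there allows smaller folds. The exact ratio interval covers counting error only, and intervals of log2 differences are 2 SE of the fit. Alternatives were DESeq2 1.42.0, other scalings and filters, only the 2 groups in the fit, a replicate block and leaving out libraries. Replicates differed by more than counting noise (lowest chi-square per degree of freedom 5.78).

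The genes, lists and tests were chosen with earlier results of these data known. By rule, every member is accounted for by cluster and starting level, members called at least once are given per library, and of other lists up to 4 genes with the smallest adjusted p on day 6 of UNC1999 are named, and days beside day 6 for such genes were chosen after their values were seen. Libraries labelled replicates came from 1 line, so the spread behind the p-values may be technical.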

Additional observations from a re-analysis of the deposited data

Results flagged for a closer look

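Effects that differed between days of 1 compound, or between the compounds on 1 day, in edgeR's test of the difference are collected here as edgeR log2 fold changes. On day 6 against day 1 of UNC1999 the difference was 3.35 for HOXA13, 5.12 for HOXB6, 3.05 for HOXB9, 1.28 for HOXC4, 5.94 for HOXC6, 6.09 for HOXC13, -0.53 for HOXA3, -0.86 for HOXA9 and -0.50 for HOXA10. The fitted values of HOXC6 and HOXC13, which had 0 counts on day 1, depend on the prior count of the fit and are no bounds. HOXA13, HOXB6, HOXC6 and HOXC13 passed the filter through late UNC1999 groups in which they were high, so their direction was set beforehand.

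On day 5 against day 1 of MAK683, which are 2 single libraries whose spread was taken from the other groups, it was 1.51 for HOXA4, -0.89 for HOXA5, -1.16 for HOXA7, -0.60 for HOXA10, 2.74 for HOXA13, 1.96 for HOXB3, 1.01 for HOXB7, -5.78 for HOXB9 and 0.74 for HOXC4. HOXB9 had 0 counts on day 5 there, so its value too depends on the prior count.

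UNC1999 against MAK683 gave 1.85 for HOXA11, 7.68 for HOXB6 and 10.1 for HOXB9 on day 3. On day 5 it gave -0.48 for HOXA3, -1.51 for HOXA4, 1.08 for HOXA7, -1.14 for HOXA9, -1.59 for HOXB3 and 7.46 for HOXB9. HOXB6 and HOXB9 had 0 counts under MAK683 on these days, so their fitted values depend on the prior count too. The direction of HOXB6 was set beforehand, since it passed the filter through UNC1999 groups. The day 5 values rest on the MAK683 library that lay closer to untreated cells than to other treated cells.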

How the results depend on the processing

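No called HOX gene changed direction under other scalings, DESeq2, other filters, a fit of the 2 groups alone, left-out libraries or a fit without the MAK683 day 5 library, and counts of called genes stayed within 1.5 times but for those that follow. Day 6 against day 1 of UNC1999 gave 5 calls with a stricter filter, against 9. Day 5 against day 1 of MAK683 gave 0 with day 3 in its place. With 1 library left out, the range was 3 to 4 for day 6 against day 1 of UNC1999 and 1 to 2 for the compounds on day 3. The cause was not tested, beyond fewer genes or samples in those fits. For single genes, 645 values under an alternative stayed on their side of the threshold, 96 lost a call and 26 gained one. Most of the losses came with libraries left out, and 15 came with DESeq2.

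With a replicate block over the treated libraries, 6 genes were called on day 6 against day 1 of UNC1999, 8 on day 5 against day 1 of MAK683, and 0, 3 and 6 between the compounds on days 1, 3 and 5. The numbers did not pair the UNC1999 libraries: residuals of same-numbered libraries correlated at -0.042 to 0.024 over 6 pairs of days. The untreated columns carry no numbers, so comparisons with them had no block.

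Other scalings moved the median of all genes by at most -0.093 (log2). Sparse genes limit the depth: 20 of the 38 HOX genes could not be tested, and MAK683 has 1 library a day.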
